A study of Homo sapiens with 8 samples.

Results

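The genes described here are the enzymes that copy DNA at the replication fork, with the clamp that holds them: *PCNA*, *POLA1*, *POLA2*, *PRIM1*, *PRIM2*, *POLD1*, *POLE*, *POLE2*, *FEN1* and *LIG1*. They were chosen by name for their function and not by a cutoff on measured values, but earlier results of these data were known. Of the 10 genes, 9 had a probe that could be matched through its RefSeq accession, out of 22439 genes named on the array, and they were read by 13 probes. No probe matched *POLA2*, so it has no value here. The 9 genes passed the filter on dim probes on all 8 arrays.

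Total RNA of treated and control cells was hybridized together on Agilent oligonucleotide arrays, 8 in all, on 1 slide. Cy5 (red) marked the treated RNA on every array and Cy3 (green) the control RNA from the same cell line, so a log2 ratio below 0 means less RNA in the treated cells. EBC-1 and SK-MES-1, both LUSQ (lung squamous cell carcinoma) cell lines, were transfected with *miR-150-3p*, the passenger strand of the *miR-150* duplex, 1 array each. SBC-3 cells (small cell lung cancer) received siDONSON-1, siDONSON-2 or siDONSON-3, which are different siRNAs against *DONSON*, a replication fork protein, 1 array each. A549 cells (lung adenocarcinoma) had *LOXL2*, a collagen cross-linking enzyme, edited with CRISPR/Cas9 and were measured on the arrays A549-GE1, A549-GE2 and A549-GE3. The control of the transfections is called both mock and untransfected in the labels, and that of the editing is unedited A549. Whether the edited cells were separate clones is not given in the sources used here. P-values measure the spread between these arrays. The *miR-150-3p* arrays differ in cell line and the siDONSON arrays in siRNA, so the spread within these groups includes such differences. Nothing in the labels says that the edited A549 arrays came from separate cultures, so their spread may be technical.

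The targeted genes followed their labels. The log2 ratio of *DONSON* was -2.15, -1.79 and -2.11 after siDONSON-1, siDONSON-2 and siDONSON-3, and that of *LOXL2* was -2.49, -2.67 and -2.59 on the edited arrays. Of the defining markers, those of neuroendocrine cells separated the lines by label in the green channel, with 3 of 5 well above background in SBC-3 cells, 1 in A549 cells and 0 in the LUSQ lines. Those of squamous cells and lung adenocarcinoma did not. Of 6 squamous markers, 1 was well above background in EBC-1 cells (*SOX2*), 3 in SK-MES-1 cells, 2 or 3 in SBC-3 cells and 1 or 2 in A549 cells. Of 4 lung adenocarcinoma markers, 1 or 2 were in A549 cells, 1 in EBC-1, 2 in SK-MES-1 and 0 or 2 in SBC-3 cells. The squamous keratins *KRT5* and *KRT6A* and the desmosomal gene *DSG3* were not well above background on any array. No array had a saturated spot (0 of 60901), and the median log2 ratio of all genes was 0.02 to 0.05, so values are given relative to nearly 0.

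At the fork, primase (*PRIM1* and *PRIM2*) makes short RNA primers and DNA polymerase alpha (*POLA1* and *POLA2*) extends them with a stretch of DNA. Polymerase epsilon (*POLE* and *POLE2*) then copies the leading strand and polymerase delta (*POLD1*) the lagging strand, both held on DNA by *PCNA*, the sliding clamp. *FEN1* removes the flap at the end of each Okazaki fragment and *LIG1* seals the nick. Most of these genes are known as targets of E2F transcription factors and are transcribed toward S phase in dividing cells.

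The promoters are shown because E2F-type letters are what several of these genes share apart from function. In RefSeq promoter windows of 300 bases (GRCh38.p14, 250 bases before to 50 after a start site), the E2F-type letters TTCCCGC were searched on both strands, as were the variant TTGGCGC, the variant TTCGCGC and the variant TTGCCGC. At least 1 match was found in 7 of the 13 windows of the 10 genes, against 4553 of 35116 promoters (13.0%). The genes with a match were *PCNA*, *POLA1*, *POLA2*, *PRIM1*, *POLE*, *POLE2* and *LIG1*, and no window of *PRIM2*, *POLD1* or *FEN1* held these letters. The letters CCAAT were in 5 of the 13 windows and 34.6% of all promoters, GGGCGG was in 7 of 13 and 45.0%, and TTTGAA or TTCGAA was in 0 of 13 and 16.4%. In *PRIM1* and *POLE*, a CCAAT overlaps an E2F-type match, and in *PCNA* and *LIG1* a GGGCGG does. A match is a description of the sequence and not a measured site.

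The 250 bases before the start are printed for 4 genes, 5′ to 3′ on the strand of the gene, with E2F-type matches in capitals. *PCNA* (chr20:5126623-5126872, minus strand) and *PRIM1* (chr12:56752324-56752573, minus strand) had the lowest log2 ratios in EBC-1 cells and hold 1 match each. *POLA1* (chrX:24693668-24693917, plus strand) holds 2 here and another after the start. *FEN1* (chr11:61792661-61792910, plus strand) is shown as a gene that was also low in EBC-1 cells but holds none.
PCNA: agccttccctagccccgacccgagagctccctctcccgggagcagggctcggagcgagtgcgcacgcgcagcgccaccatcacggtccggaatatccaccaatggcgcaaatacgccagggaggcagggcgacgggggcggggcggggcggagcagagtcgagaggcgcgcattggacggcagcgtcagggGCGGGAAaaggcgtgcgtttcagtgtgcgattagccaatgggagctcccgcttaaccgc
PRIM1: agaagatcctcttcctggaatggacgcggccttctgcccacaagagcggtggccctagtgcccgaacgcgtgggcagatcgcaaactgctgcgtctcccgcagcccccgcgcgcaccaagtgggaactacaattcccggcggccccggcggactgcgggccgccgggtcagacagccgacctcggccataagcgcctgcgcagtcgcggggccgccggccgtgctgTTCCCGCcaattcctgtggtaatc
POLA1: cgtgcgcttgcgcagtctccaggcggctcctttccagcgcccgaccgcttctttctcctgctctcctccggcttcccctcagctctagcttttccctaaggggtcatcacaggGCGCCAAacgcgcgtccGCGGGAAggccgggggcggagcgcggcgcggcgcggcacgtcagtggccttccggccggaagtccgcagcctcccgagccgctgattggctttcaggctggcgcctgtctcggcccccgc
FEN1: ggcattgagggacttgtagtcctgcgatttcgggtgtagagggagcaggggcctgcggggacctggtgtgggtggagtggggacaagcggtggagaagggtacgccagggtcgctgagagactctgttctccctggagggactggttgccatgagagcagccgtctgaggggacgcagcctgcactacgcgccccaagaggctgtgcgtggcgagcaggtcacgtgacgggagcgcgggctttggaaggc

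After *miR-150-3p* transfection of EBC-1 cells, all 9 measured genes had a log2 ratio below -1, from -2.54 for *PCNA* to -1.14 for *POLD1*, against 6.04% of all 14759 genes. In SK-MES-1 cells, 0 of the 9 were below -1, where 1.27% of 16178 genes were, and the values ran from -0.43 for *PCNA* to 0.05 for *POLE2*. The median of the 9 was -1.72 in EBC-1 cells and -0.17 in SK-MES-1 cells. As there was 1 array per cell line, neither set of values has a test of its own.

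**Figure D1:**
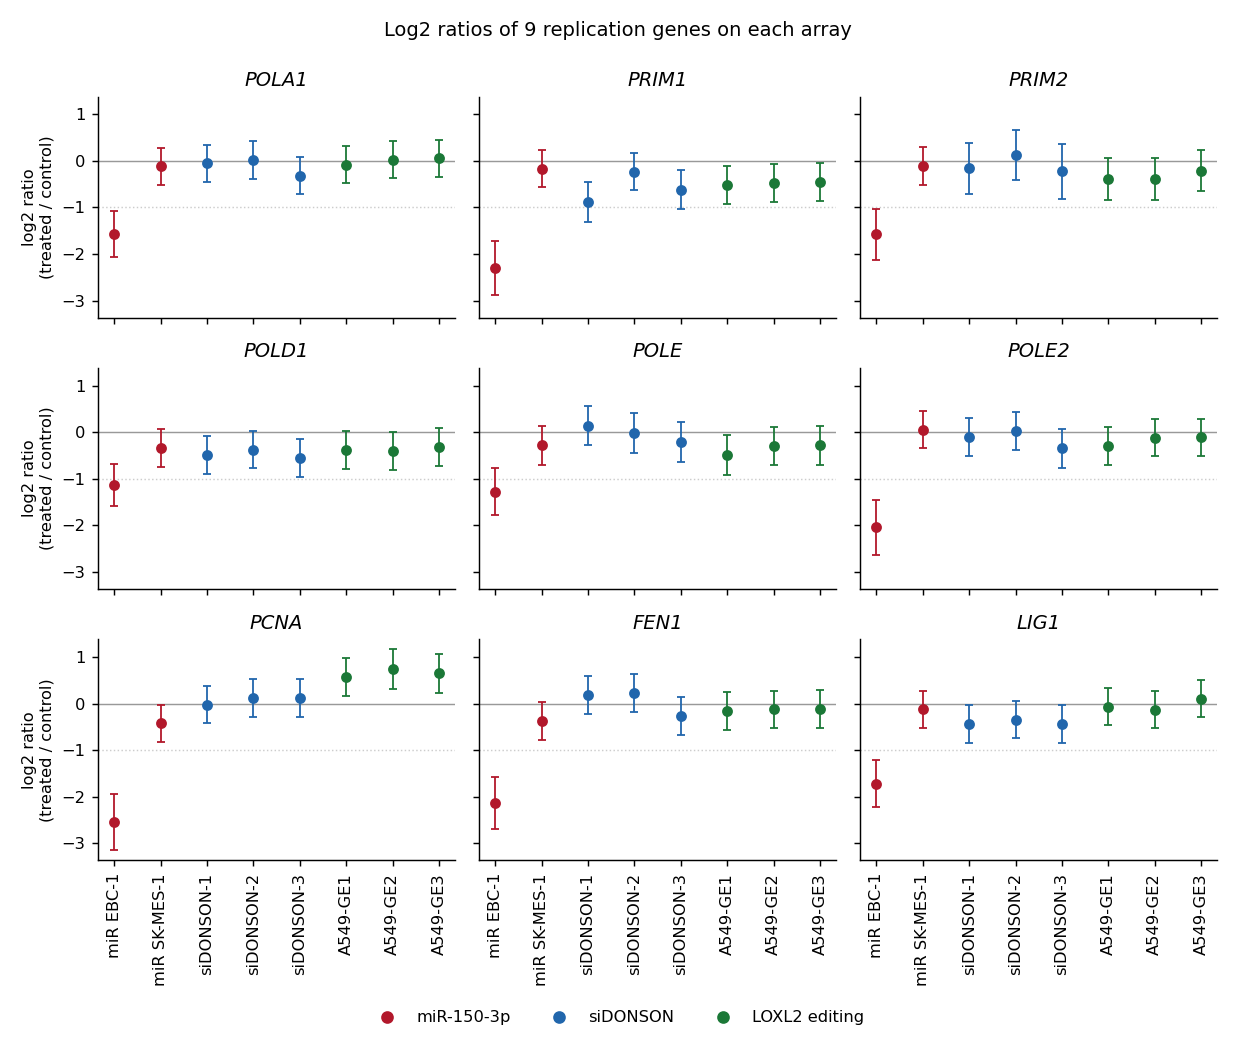
Log2 ratio (treated over control) of each of the 9 genes on the 8 arrays, 1 panel per gene; points are gene values and bars are the 95% limits of the software's error, which covers technical noise within an array. The EBC-1 point is the lowest in every panel, from -2.54 to -1.14, and *PCNA* is the only gene above 0.5 on the edited A549 arrays.

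*PCNA* was the lowest of the 9 on both arrays. One of its probes read an intensity of 9715 in control and 1605 in transfected EBC-1 cells, and 3310 and 2411 in SK-MES-1 cells. The mean log2 ratio over both probes was -2.54 in EBC-1 cells, 5.83-fold lower, and -0.43 in SK-MES-1 cells, 1.34-fold lower, while this probe alone gave -2.597 and -0.457. Only 0.224% of the genes measured in EBC-1 cells were at or below *PCNA*. In SK-MES-1 cells *PCNA* was the 1 gene of the 9 whose distance from 0 exceeded the software's 95% error, whereas in EBC-1 cells all 9 did. How many of all genes exceeded that error was not counted, on these arrays or on those below.

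The primase and polymerase alpha genes followed. *PRIM1*, the catalytic subunit of primase, was at -2.30 in EBC-1 cells (4.92-fold lower) and -0.17 in SK-MES-1 cells. Its probe is printed 10 times on the array, and the SD over these spots was 0.06 on both arrays, which covers spot noise within an array and not the spread between arrays. *PRIM2*, the large primase subunit, was at -1.58 and -0.11. *POLA1*, the catalytic subunit of polymerase alpha, was also at -1.58 and -0.11. Both genes were thus about 3-fold lower in EBC-1 cells (2.99-fold for each) and within the software's error of 0 in SK-MES-1 cells.

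The subunits of the leading- and lagging-strand polymerases showed the widest spread. *POLE2*, the second subunit of polymerase epsilon, was at -2.04 in EBC-1 cells (4.12-fold lower) and at 0.05 in SK-MES-1 cells. *POLE*, its catalytic subunit, was at -1.28 and -0.28. *POLD1*, the catalytic subunit of polymerase delta, was at -1.14 and -0.34, the highest of the 9 in EBC-1 cells but below 6 of them in SK-MES-1 cells. *POLE2* was thus low in EBC-1 cells and the highest of the 9 in SK-MES-1 cells. All of the 9 but *PCNA* lay within the software's error of 0 in SK-MES-1 cells, so their order there is not resolved.

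The Okazaki fragment enzymes were low in EBC-1 cells. *FEN1* was at -2.14 (4.40-fold lower) in EBC-1 cells and -0.37 in SK-MES-1 cells. *LIG1* was at -1.72 (3.30-fold lower) and -0.12. Of the 9 genes, 8 were below 0 in SK-MES-1 cells, against 47.5% of all genes there. With the mean of the 6 other arrays subtracted from each gene, 4 of 9 were below 0 there and the median was 0.080. With normexp background correction (offset 50) and loess in place of the software's signals, the median in EBC-1 cells was -1.03. Then 5 genes stayed below -1 (*PCNA*, *FEN1*, *PRIM1*, *LIG1* and *POLD1*), with *POLE2* at -0.49 and *POLE* at -0.40.

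Genes with more than 1 probe could be read more than once. The 2 probes of *PCNA* differed by at most 0.11 on any array. The 3 probes of *PRIM2* gave -0.97, -1.57 and -2.20 in EBC-1 cells, a gap of 1.24, and the 2 of *POLE* gave -1.05 and -1.51. At all 7 of these probes the EBC-1 ratio was below the SK-MES-1 ratio, so in EBC-1 cells the size and not the direction depended on the probe. Elsewhere the sign could differ too: the *PRIM2* probes ran from -0.26 to 0.09 in SK-MES-1 cells and from -0.25 to 0.40 with siDONSON-2, and the *POLE* probes were at -0.21 and 0.16 with siDONSON-2.

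**Figure D2:**
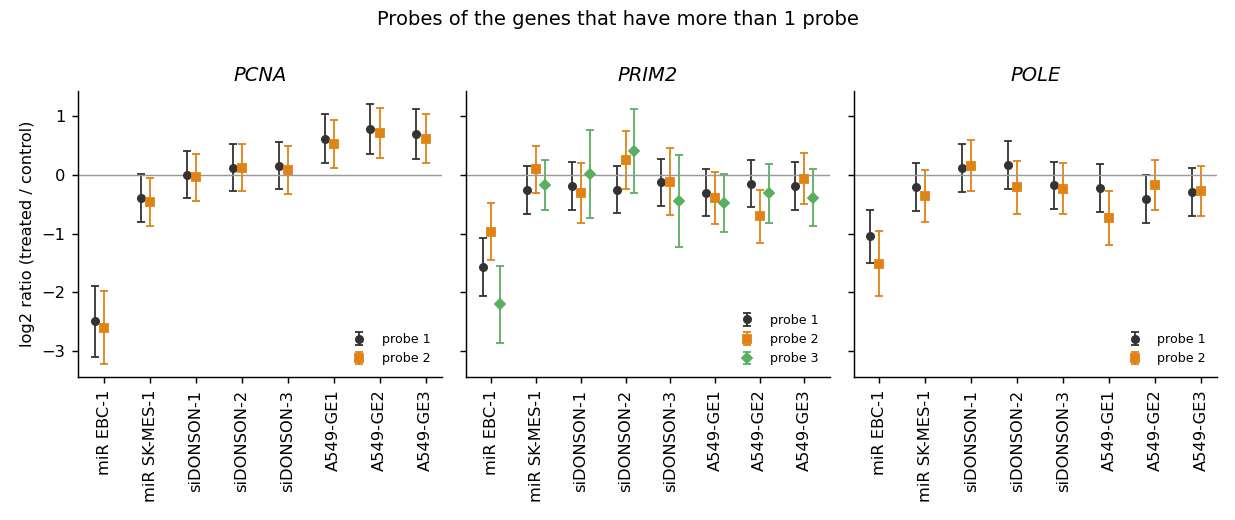
Log2 ratio of every probe of *PCNA* (2), *PRIM2* (3) and *POLE* (2) on the 8 arrays; bars are the 95% limits of the software's error. The *PCNA* probes lie within 0.11 of each other, while those of *PRIM2* are up to 1.24 apart in EBC-1 cells.

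Tested over both cell lines with limma, the mean log2 ratio of no gene (0 of 9) passed the threshold of an adjusted p of 0.05, where 5.38% of 14230 genes did. Without adjustment, 9 of 9 had a limma p under 0.05. The share of all genes at an unadjusted p under 0.05 was not counted, here or for the other groups below. The means were -1.49 ± 0.39 (SE) for *PCNA*, -1.25 ± 0.34 for *FEN1*, -1.23 ± 0.41 for *PRIM1* and -0.74 ± 0.17 for *POLD1*, with limma adjusted p from 0.0513 for *POLD1* to 0.141 for *POLE2*. This fit takes the gap between the 2 LUSQ lines as spread. With the 2 lines as groups of their own, so that the spread comes from the siDONSON and *LOXL2* arrays, the mean of all 9 genes fell, against 10.4% of genes, with limma adjusted p from 0.00148 for *PCNA* to 0.00869 for *POLE*. That fit assumes that the single arrays vary as the other groups do. It describes the mean over the 2 lines, most of which comes from EBC-1 cells.

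The difference between the lines compares 1 array with 1 array and has no replicate check, so it is given as values. EBC-1 minus SK-MES-1 was -2.13 for *PRIM1*, -2.12 for *PCNA*, -2.10 for *POLE2*, -1.77 for *FEN1*, -1.60 for *LIG1*, -1.47 for *PRIM2*, -1.46 for *POLA1*, -0.99 for *POLE* and -0.80 for *POLD1*. With normexp and loess the differences of *POLE2* (-0.58), *PRIM2* (-0.62), *POLA1* (-0.91) and *POLE* (-0.31) were smaller by more than 1.5 times, and that of *PCNA* was -1.87. Cell line and array cannot be told apart here.

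Other genes of replication and repair were also low in EBC-1 cells. Of 50 such genes, 48 were measured there, and 24 were below -1, with a median of -1.003, while in SK-MES-1 cells 1 of 49 was below -1 and the median was -0.15. The 9 clamp loader and unloader genes had a median of -1.88 in EBC-1 cells. Of the subunits of RFC, which opens *PCNA* and places it on DNA, *RFC3* was at -2.02, *RFC5* at -2.003, *RFC4* at -1.88 and *RFC2* at -1.49, but the large subunit *RFC1* was at -0.09. *ATAD5*, which unloads *PCNA*, was at -2.54.

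The lists differed in how low they lay. The 8 PCNA-binding genes had a median of -1.67, all 8 below -1, with *UHRF1*, which brings DNA methylation to new DNA, at -2.82. The coupling factors of polymerase alpha were at -2.97 (*MCM10*) and -2.10 (*WDHD1*). The median was -1.25 for 6 other Okazaki fragment nucleases and -0.86 for the 3 RPA genes, which coat single-stranded DNA, with no RPA gene below -1.

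Subunits and polymerases with other roles lay nearer to 0. The small accessory subunits *POLD4* (0.57) and *POLE4* (0.16) were above 0 in EBC-1 cells, unlike *POLE3* (-1.05), *POLD3* (-0.84) and *POLD2* (-0.65). Of 13 measured polymerases outside the fork, the median was -0.14, and *POLQ* (-2.30) and *PRIMPOL* (-1.16) were the 2 below -1. *POLI*, a translesion polymerase, was at 0.75. In the fit of 3 groups, limma called 3 of 48 genes of these lists lower after *miR-150-3p*, against 2.90% of all genes, namely *UHRF1* (adjusted p = 0.0300), *ATAD5* (adjusted p = 0.0384) and *POLH* (adjusted p = 0.0470). With the lines apart it called 29 lower, where 10.4% of all genes were, and 1 higher (*POLI*).

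Genes of dividing cells that do not act at the fork were low on the same array. All 9 measured genes of that list were below -1 in EBC-1 cells, from -2.82 for *CDK1* to -1.20 for *AURKA* with a median of -1.59, and 0 of 9 were below -1 in SK-MES-1 cells (median -0.11). The E2F activators *E2F1*, *E2F2* and *E2F3* were at -2.72, -2.87 and -0.73. The 8 reference genes had a median of -0.19 in EBC-1 cells, and limma called *GAPDH* (adjusted p = 0.0362) and *TBP* (adjusted p = 0.0499) lower over both lines. The part of these genes in the result for the replication enzymes was not tested. In such bulk RNA, fewer cells in S phase and less RNA per cell cannot be told apart.

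**Figure D3:**
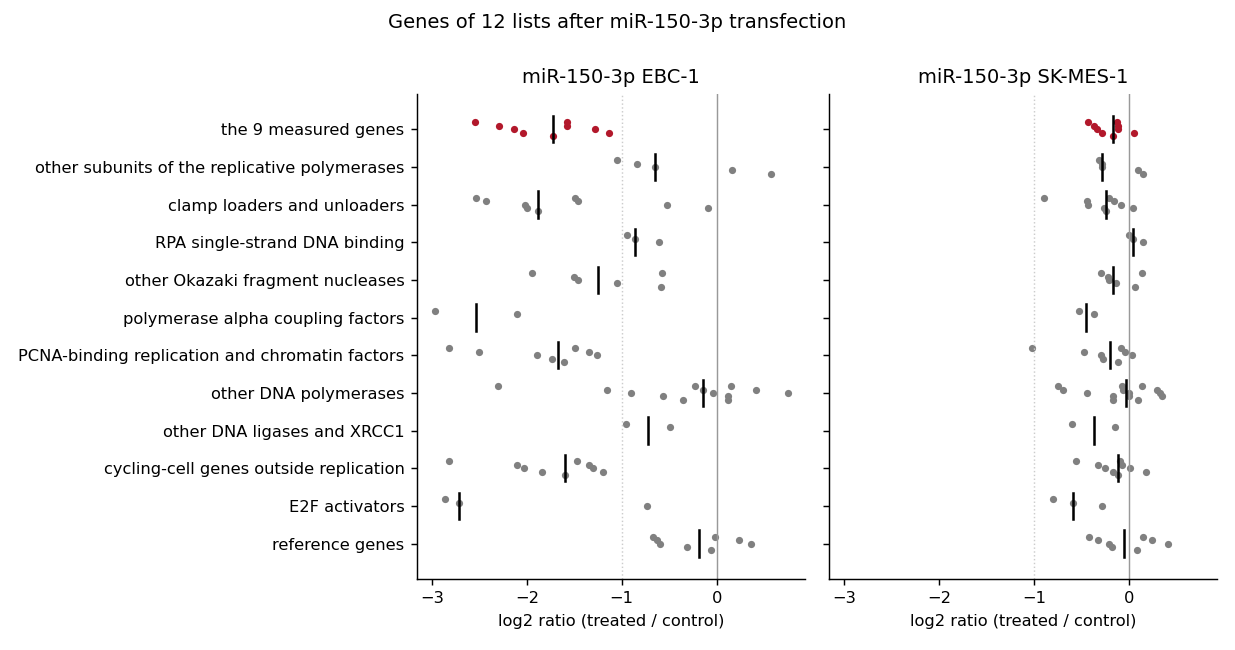
Log2 ratio of the genes of 12 lists after *miR-150-3p*, in either LUSQ line; each point is a gene, the bar is the median of the list, and the 9 replication enzymes are in red. In EBC-1 cells the lists of the fork and of dividing cells lie mostly below -1 while the reference genes have a median of -0.19, and in SK-MES-1 cells the enzymes have a median of -0.17.

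After siRNA against *DONSON* in SBC-3 cells, the genes stayed near 0, and the 3 siRNAs differed. The median of the 9 was -0.11 for siDONSON-1, 0.02 for siDONSON-2 and -0.32 for siDONSON-3. Of the 9 genes, 3 (*LIG1*, *POLD1* and *PRIM1*) were below 0 on every array, against 18.6% of 14454 genes. Their distance from 0 also exceeded the software's 95% error with siDONSON-1 and siDONSON-3, and that of no gene did with siDONSON-2.

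*PRIM1* was at -0.88, -0.23 and -0.62 with siDONSON-1, siDONSON-2 and siDONSON-3. *POLD1* was at -0.48, -0.37 and -0.56, and *LIG1* at -0.44, -0.34 and -0.43. These genes were lower with every siRNA, *PRIM1* with a wide spread (-0.58 ± 0.33, SD, n = 3) and *LIG1* with a narrow one (-0.40 ± 0.05, SD, n = 3). *PCNA* (-0.02, 0.12 and 0.12), *POLE* (0.14, -0.02 and -0.21) and *FEN1* (0.19, 0.22 and -0.27) lay on both sides of 0. So did *POLA1* (-0.05, 0.02 and -0.32), *PRIM2* (-0.16, 0.13 and -0.23) and *POLE2* (-0.11, 0.02 and -0.34). The brightest *PRIM2* probe was below 0 with every siRNA (-0.19, -0.25 and -0.13). The *PRIM2* value above 0 with siDONSON-2 came from its dimmer probes (0.25 and 0.40), with control intensities of 79 and 50 against 1340.

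In the fit of 3 groups, limma called 0 of 9 genes after siDONSON, against 7.22% of all genes, and 1 (*POLD1*, adjusted p = 0.0875) had an unadjusted p under 0.05. The gap between the LUSQ lines enters the spread of this fit (SE 0.25 for *LIG1*, against 0.078 with the lines apart). A count of 0 of 9 therefore cannot show that the genes were unchanged. With the *miR-150-3p* lines apart, an alternative added after the values had been seen, *POLD1* (limma adjusted p = 0.0216), *LIG1* (0.0315) and *PRIM1* (0.0404) fell, 3 of 9 against 4.45% of genes. Leaving out siDONSON-3 from that fit ended all 3 calls (limma adjusted p = 0.0708, 0.0929 and 0.126 in the same order), and leaving out siDONSON-1 ended those of *LIG1* (0.0718) and *PRIM1* (0.0873). The fit also takes its spread from the *LOXL2* arrays, and without any 1 of them 0 of 9 genes passed. Of 48 other replication and repair genes, limma called *RFC1* lower in the fit of 3 groups (-0.59, -0.96 and -0.45, adjusted p = 0.0190), 1 of 48 against 3.21% of all genes. Cycling genes had medians of 0.12, -0.60 and -0.05, so the siRNA with the lowest values there, siDONSON-2, was the one with the highest median of the 9 enzymes.

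In *LOXL2*-edited A549 cells, *PCNA* stood apart from the other 8 genes. Its log2 ratio was 0.57, 0.74 and 0.65 on A549-GE1, A549-GE2 and A549-GE3, a mean of 0.66 ± 0.09 (SD, n = 3), and 36.9% of 15531 genes were above 0 on every array. *PRIM1* was at -0.53, -0.47 and -0.46, *POLD1* at -0.38, -0.40 and -0.31, and *POLE* at -0.48, -0.30 and -0.28. *PRIM2* was at -0.39, -0.39 and -0.21.

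The remaining genes were nearer to 0. *FEN1* was at -0.16, -0.12 and -0.11, and *POLE2* at -0.30, -0.12 and -0.11. *LIG1* (-0.07, -0.13 and 0.11) and *POLA1* (-0.08, 0.03 and 0.06) lay on both sides of 0. In all, 6 of 9 genes were below 0 on every edited array, against 33.4% of genes, and *PCNA* and *PRIM1* were outside the software's error on all 3.

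In the fit of 3 groups, limma called 0 of 9 genes after *LOXL2* editing, against 14.4% of all genes, with 1 (*POLD1*, adjusted p = 0.127) at an unadjusted p under 0.05. Here too the gap between the LUSQ lines enters the spread (SE 0.32 for *PCNA*, against 0.077 with the lines apart). This count of 0 of 9 cannot show that the genes were unchanged either. With the *miR-150-3p* lines apart, also added after the values had been seen, *PCNA* rose (limma adjusted p = 0.00505, 95% interval of the mean 0.47 to 0.84), 1 of 9 against 9.65% of genes. In that fit *POLD1* (limma adjusted p = 0.0222), *PRIM1* (0.0436) and *POLE* (0.0470) fell, 3 of 9 against 8.95%. Leaving out any 1 of the edited arrays ended the calls of *POLD1*, *PRIM1* and *POLE* (limma adjusted p from 0.108 to 0.233), and leaving out A549-GE2 ended that of *PCNA* (0.0530).

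The clamp loaders did not share the direction of *PCNA* on the edited arrays. All 9 clamp loader and unloader genes were below 0 on each of them, from -0.78 to -0.0038, against 33.4% of all genes. Their medians were -0.20, -0.09 and -0.12. The 8 PCNA-binding genes lay on both sides of 0, with medians of -0.11, -0.005 and -0.03. Among them *PCLAF* was the highest (0.27, 0.31 and 0.29) and *MSH6* the lowest (-0.43, -0.46 and -0.48). In the fit of 3 groups, limma called 2 of 49 listed genes lower, against 6.77% of all genes: *RNASEH1* (-0.50, -0.67 and -0.62, adjusted p = 0.0121), which cuts RNA paired with DNA, and *POLG2* (-0.40, -0.34 and -0.39, adjusted p = 0.0251), a subunit of the mitochondrial polymerase. Cycling genes had medians of -0.27, -0.19 and -0.14.

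**Figure D4:**
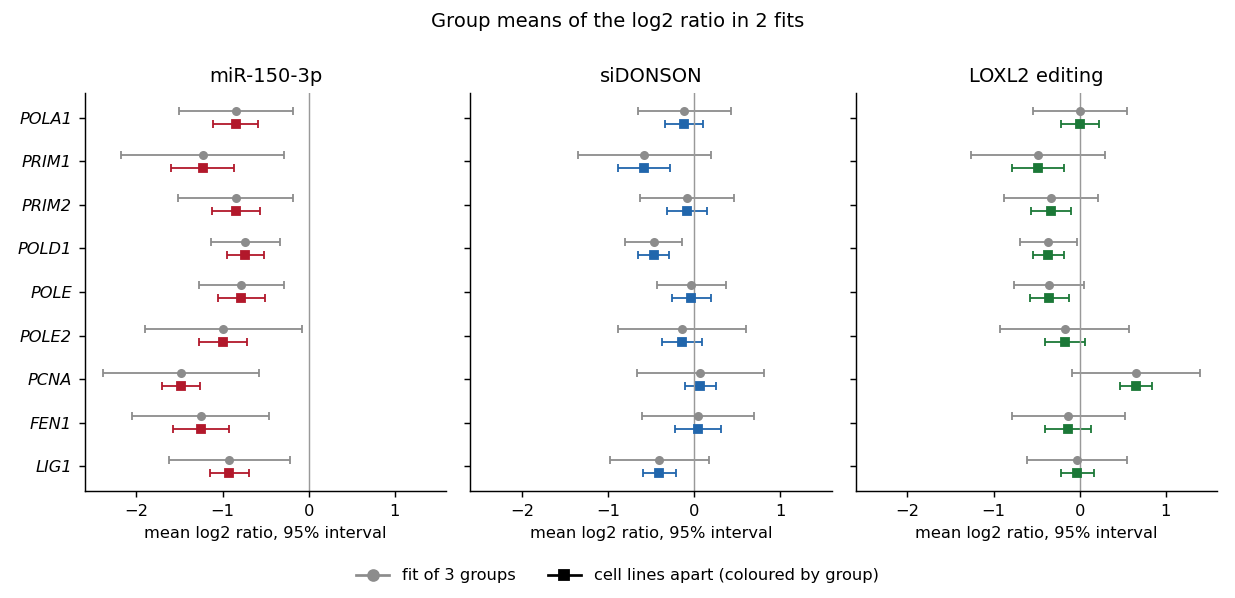
Mean log2 ratio of each of the 9 genes for *miR-150-3p*, siDONSON and *LOXL2* editing, with 95% intervals from the limma fit of 3 groups and from that with the *miR-150-3p* lines apart. The intervals are narrower with the lines apart, and *PCNA* after *LOXL2* editing is the one mean well above 0, at 0.66.

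Differences between treatments were tested directly as well, which removes a dye effect that is the same on all arrays. The cell lines differ together with the treatments in every such comparison, here and in the next paragraph, so treatment and cell line cannot be told apart. In the fit of 3 groups, whose spread includes the gap between the LUSQ lines, limma called 0 of 9 genes in each comparison. For *miR-150-3p* minus siDONSON, 2.69% of all genes passed the same adjusted threshold, and the lowest limma adjusted p of the 9 was 0.129. For *miR-150-3p* minus *LOXL2* editing 3.60% of all genes passed, and *PCNA* had the lowest limma adjusted p (0.0604). For siDONSON minus *LOXL2* editing 7.29% passed. At an unadjusted limma p under 0.05 there were 3, 3 and 0 of the 9, in the same order. The share of all genes at that looser rule was not counted.

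With the *miR-150-3p* lines apart, again added after the values had been seen, 7 of 9 genes were lower after *miR-150-3p* than after siDONSON, against 6.29% of genes. They were *PCNA* (limma adjusted p = 0.00359), *FEN1* (0.0119), *POLE2*, *POLA1*, *POLE*, *PRIM2* and *LIG1*. For *miR-150-3p* minus *LOXL2* editing, 5 of 9 were lower, against 6.02% of genes, namely *PCNA* (limma adjusted p = 0.00172), *LIG1*, *FEN1*, *POLA1* and *POLE2*. Without any 1 of the *LOXL2* arrays, *PCNA* and *FEN1* were the 2 genes left in the first comparison and *PCNA* was the 1 left in the second. *PCNA* was lower after siDONSON than after *LOXL2* editing by a log2 difference of -0.58 (95% interval -0.84 to -0.33, limma adjusted p = 0.0246), 1 of 9 against 4.64% of genes, and without any 1 of the *LOXL2* arrays it did not pass (limma adjusted p from 0.0852 to 0.121).

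The green channel gives the level of each gene in control cells, scaled to the 75th percentile of each array. A level was compared only between cell lines at the same probe. Relative to the mean of the 4 lines, the median of the 13 probes was 0.27 in EBC-1, 0.12 in A549, -0.10 in SK-MES-1 and -0.35 in SBC-3 cells. SBC-3 cells had the lowest level at 7 of the 13 probes and EBC-1 cells the highest at 6. With quantile scaling these counts were 6 and 4, and A549 cells were the highest at 4. EBC-1 and SK-MES-1 have 1 green channel each, and the differences were set beside the range over the 3 arrays of SBC-3 and A549.

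*PCNA* varied 3.73-fold and 3.88-fold between lines at its 2 probes, in the order EBC-1, A549, SK-MES-1, SBC-3, with EBC-1 and A549 closer than the range of 3 arrays, and A549 first with quantile scaling. *FEN1* had the same order and varied 3.69-fold, all neighbors being further apart than that range. *POLD1* also had this order, but varied 1.59-fold, and A549 and SK-MES-1 did not differ beyond the range. With quantile scaling SBC-3 was next to EBC-1 and SK-MES-1 the lowest for *POLD1*. *PRIM2* varied 2.14-fold at its brightest probe and 4.34-fold and 4.72-fold at its dimmer ones, with SBC-3 the lowest at each. The probe with 4.34-fold was well above background in green on only 1 of the 3 SBC-3 arrays.

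Other genes had another order. *POLA1* ran from A549 through SBC-3 and EBC-1 to SK-MES-1 cells (2.88-fold), and *LIG1* from A549 through SBC-3 and SK-MES-1 to EBC-1 (1.59-fold), with all neighbors apart, but *LIG1* was highest in SBC-3 with quantile scaling. *POLE2* was highest in A549 and lowest in EBC-1 cells (2.86-fold). *PRIM1* was as high in SBC-3 as in A549 cells within the range (log2 difference 0.007; SBC-3 above A549 with quantile scaling) and lowest in SK-MES-1 cells (1.83-fold). *POLE* varied least, 1.44-fold and 1.49-fold at its 2 probes, and several of its neighbors did not differ. *POLE2* and *LIG1* had their lowest control level in EBC-1 cells, where their log2 ratios were -2.04 and -1.72. With the 75th percentile scaling, *PCNA*, *FEN1* and *POLD1* had their highest there, where their log2 ratios were -2.54, -2.14 and -1.14. The green level is also the denominator of each ratio, and how level and ratio are related was not tested.

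**Figure D5:**
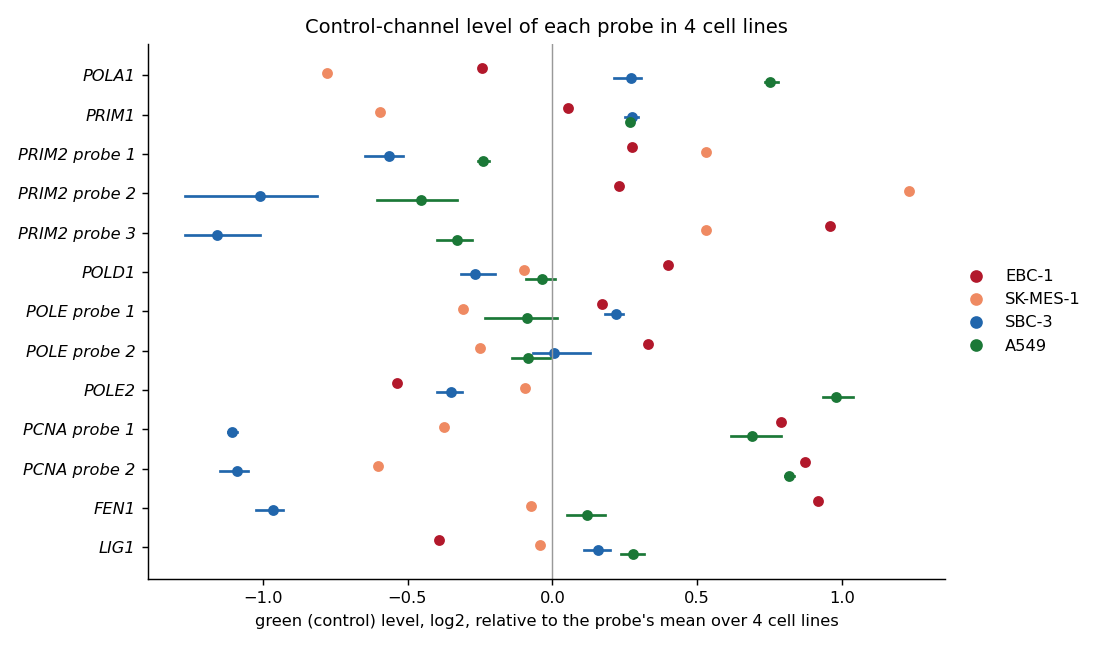
Green-channel (control) level of each of the 13 probes in EBC-1, SK-MES-1, SBC-3 and A549 cells, as log2 difference from the probe's mean over the 4 lines; bars are the range over 3 arrays in SBC-3 and A549. SBC-3 points are the lowest at 7 probes, and the probes of *PCNA* and *FEN1* and 2 of the 3 of *PRIM2* spread the most.

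The 9 genes did not share 1 profile over the 8 arrays to the same degree. Likeness was measured as the root mean square difference of log2 ratios over the 8 arrays. From the mean profile of the 9, *POLE2* and *POLA1* differed least (0.136 each) and *PRIM1* (0.387) and *PCNA* (0.583) most. Of 9992 genes outside the set, those nearest to the mean profile were *RFC4* (0.101), *RPL39L* (0.108), *UBE2T* (0.108), *HELLS* (0.113) and *ITGB3BP* (0.114). *RFC4* ran from -1.88 in EBC-1 to 0.17 with siDONSON-2. The genes nearest to *PRIM1* were the histone genes *H4C6* (0.181), *H4C15* (0.183) and *H4C9* (0.184), whose near-identical copies may share probe signal. The gene nearest to *PCNA* was *GINS1* (0.203), a subunit of the GINS complex of the fork, and that nearest to *POLA1* was *FANCG* (0.0779). As the 9 genes are lowest in EBC-1 cells, this measure rests largely on that array.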

How the data were processed

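The authors deposited Agilent Feature Extraction (version 12.1.1.1, protocol GE2_1200_Dec17) output for each array, with intensity values of both channels, background-subtracted and dye-normalized by the authors' software, and well-above-background scores. The deposited log10 ratios, in these files and in a table of the whole series, are identical (largest difference 0), and their software error was converted to the log2 scale. The design of the array names hg19, and only gene names were taken from the RefSeq table. Of 49793 accessions, 24782 matched a symbol.

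Log2 ratios of red over green processed intensities were calculated. Of 60901 spots that are not controls, 81 to 133 per array were marked as outliers and left out, and spots of a probe were averaged. A probe was counted when well above background in at least 1 channel, and counted probes of a gene were averaged, which gave 14759 to 16178 genes per array. Of the spots, 41.1% to 46.4% were well above background in green and 48.5% to 56.2% in red. The number of arrays limits the precision. Limma (version 3.58.1, R 4.3.3) fitted 3 groups to the 8 arrays, with 5 residual degrees of freedom, over all genes, and p-values were adjusted by Benjamini-Hochberg (threshold 0.05). All groups entered, since the spread of 2 arrays by themselves is poorly known. With the lines apart, 4 degrees of freedom remain. There was no dye swap and 1 slide, so gene-specific dye bias and treatment cannot be told apart in a group mean, and a slide block could not be fitted. The green channels of SBC-3 arrays differed by an SD of 0.135 to 0.148 and those of A549 arrays by 0.0876 to 0.0947 on the log2 scale. If a group's control is a single RNA, its own spread is left out.

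The genes and lists were chosen with earlier results of these data known. Named were the 9 genes, the targeted genes, the lowest and highest genes of a list in EBC-1 cells, genes of the lists that passed the threshold and the nearest profiles, beside subunits of the same complexes. The fit was also run on simulated data, whose outcome is not given here, so it is no check of these p-values. The software's p-values were not used. Alternatives are described below.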

Additional observations from a re-analysis of the deposited data

Results flagged for a closer look

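After *miR-150-3p*, *POLE2* was the 1 gene of the 9 with log2 ratios on opposite sides of 0, namely -2.04 for EBC-1 and 0.05 for SK-MES-1, a difference of -2.10. With 1 array per line the difference was not tested, and the SK-MES-1 value lies within the software's error of 0. With normexp and loess the difference was -0.58.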

How the results depend on the processing

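Of the test results of single genes, 545 kept their direction and side of the threshold under an alternative, 71 newly passed and 23 reversed. With normexp and loess, run on median in place of mean signals, the median in EBC-1 cells was -1.03 and 5 genes were below -1. An offset of 50 was added to both channels there, which draws the ratios of dim probes toward 0. The count of genes lower after *miR-150-3p*, 0 of 9, became 2 with normexp and loess, 2 with both channels well above background and 1 with median centring. It became 1 with the brightest probe, 1 with the 6 other arrays subtracted and 9 with cell lines apart. Over all genes, 413 of 14230 became 726 of 14230, 652 of 12564, 563 of 14230, 519 of 14139, 537 of 12864 and 1461 of 14032, in the same order. Leaving out EBC-1 or SK-MES-1 leaves 1 array of *miR-150-3p*, so only effect sizes are given. The median of the 9 was -1.72 in EBC-1 cells and -0.17 in SK-MES-1 cells. For *miR-150-3p* minus *LOXL2* editing, 0 became 1 with normexp and loess and 1 with both channels well above background. Over all genes, 553 of 13778 and 355 of 12037 were lower there. With cell lines apart, 3 genes were lower after siDONSON, 3 lower and 1 higher after *LOXL2* editing, 7 lower in *miR-150-3p* minus siDONSON, 5 lower in *miR-150-3p* minus *LOXL2* editing and 1 lower in siDONSON minus *LOXL2* editing. With the spread of the group alone, 4 were lower and 1 higher after *LOXL2* editing, against 2852 lower and 3021 higher of 15531 genes. The median control level in EBC-1 cells, 0.27, was 0.16 with quantile scaling. The cause of these changes was not tested.

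Reversals were of values that did not pass the test. *POLE* after siDONSON was 0.021 with normexp and loess and 0.032 with the brightest probe, and *POLA1* after *LOXL2* editing was -0.041 with median centring. Over single arrays left out, after *miR-150-3p* the values were *POLE2* -2.04 to 0.055. After siDONSON the values were *FEN1* -0.043 to 0.20 and *POLE* -0.12 to 0.056. After *LOXL2* editing the values were *LIG1* -0.098 to 0.021 and *POLA1* -0.026 to 0.042. For *miR-150-3p* minus siDONSON the values were *LIG1* -1.32 to 0.28, *POLA1* -1.46 to 0.0030, *POLD1* -0.67 to 0.13, *POLE2* -1.90 to 0.20 and *PRIM1* -1.72 to 0.41. For *miR-150-3p* minus *LOXL2* editing the values were *POLD1* -0.77 to 0.028, *POLE* -0.92 to 0.070, *POLE2* -1.87 to 0.23, *PRIM1* -1.81 to 0.32 and *PRIM2* -1.25 to 0.22. For siDONSON minus *LOXL2* editing the values were *PRIM1* -0.27 to 0.059 and *POLE2* -0.051 to 0.13.

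The replicate numbers of the siDONSON and *LOXL2* arrays share only a number (correlations of deviations -0.022, -0.025 and -0.012), and with the replicate block 0 of 9 genes were lower and 0 higher, while calls over all genes went from 479 lower and 517 higher to 197 and 196. All-gene counts moved too. After *miR-150-3p*, 413 lower and 352 higher became 726 and 810 with normexp and loess, 134 and 64 with no filter and 1461 and 1170 with cell lines apart. After siDONSON, 464 and 580 became 2133 and 764 with no filter, and after *LOXL2* editing 1051 and 1178 became 3914 and 1461. Median centring moved the lower share of calls after *miR-150-3p* from 54.0% to 66.1% and after siDONSON from 44.4% to 56.1%. The files used here hold no gene name column, so naming by it was not run.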
